A study of Mus musculus with 20 samples.

Results

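The genes described here encode 6 chemokines and 3 chemokine receptors that form the CXCL12, CXCL16, fractalkine, CXCL13 and CCR4 ligand axes: Cxcl12 with its receptor Cxcr4, Cxcl16 with Cxcr6, Cx3cl1 (fractalkine) with Cx3cr1, Cxcl13, and the CCR4 ligands Ccl17 and Ccl22. They were taken as a fixed list of symbols, and all 9 were found among the 49315 gene identifiers of the count tables. The libraries are bulk RNA-seq of flow-sorted mouse lung eosinophils, and each holds cells pooled from 3 to 5 mice. The graft libraries (n = 5) came from Balb/c lungs 7 days after transplantation into C57BL/6 mice, and their titles state that no costimulatory blockade was given. The resting libraries (n = 5) came from lungs of untreated C57BL/6 mice. The labels call infiltrating eosinophils recipient cells, so the cells of both groups are labelled as C57BL/6, while the surrounding graft tissue is Balb/c. Grafts with blockade at day 7 and day 30 were not analysed here.

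Chemokines bind G protein-coupled receptors on leukocytes and direct their movement. CXCL12 is a homeostatic chemokine of endothelium and stroma that holds CXCR4-bearing leukocytes in bone marrow and tissue. CXCL16 and fractalkine are unusual in being made as membrane-anchored proteins on a stalk, from which proteases release a soluble form. CXCL16 is typical of macrophages and dendritic cells and its receptor CXCR6 of effector and tissue-resident T cells, whereas fractalkine is typical of endothelium and epithelium and CX3CR1 of monocytes and macrophages. CCL17 and CCL22 share the receptor CCR4 and are made largely by dendritic cells and macrophages.

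The axes did not change as one in the graft. Cxcl16 and Cxcr6 were higher by 11.0-fold and 9.27-fold, Cxcl12, Cx3cl1 and Ccl17 were lower by 16.2-fold, 13.8-fold and 3.48-fold, and Cxcr4, Cx3cr1, Cxcl13 and Ccl22 did not pass the test. Of the 9 members 2 were therefore higher and 3 lower at an edgeR quasi-likelihood adjusted p below 0.05, where 23.3% and 23.4% of the 16500 genes tested were higher and lower, and 46.7% were called in either direction. Their median log2 fold change was -0.10, against 0.05 over all genes tested. The groups did not overlap in the same 5 members (2 higher, 3 lower in the graft), against 35.1% of all genes tested (16.4% with the graft higher and 18.7% with the graft lower). A share of calls of this size is close to that of the whole transcriptome, so the count itself says nothing particular about these genes. All 9 members passed the filter on low counts.

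**Figure D1:**
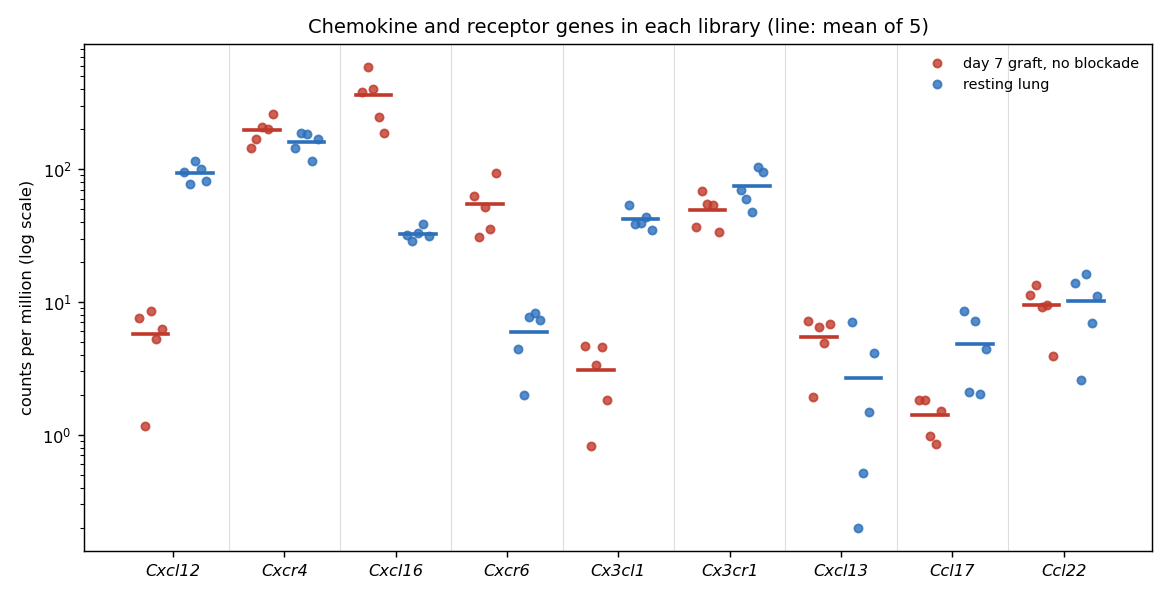
Level (CPM, read counts scaled to library size; log scale) of the 9 genes in each of the 10 libraries, with day 7 grafts without blockade left of resting lungs and a line at each group's mean. Cxcl16 and Cxcr6 lie wholly above resting lung in the graft, Cxcl12, Cx3cl1 and Ccl17 wholly below it, and the other 4 genes overlap.

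Total counts were 15695074 to 26683784 in the graft libraries and 6666577 to 12883144 in the resting libraries. On these totals, before TMM adjustment, 3 counts correspond to 0.112 to 0.191 CPM in the graft and 0.233 to 0.450 CPM in resting lung. Each group had its own count table and its own depth range, and a batch cannot be told apart from the group. With library totals alone the median over all genes tested moved by -0.19 (log2). Higher genes made up 49.9% of all calls with TMM scaling and 33.8% with library totals alone. With DESeq2 size factors on the same 16500 genes the share was 47.8%. DESeq2's own test gave 39.2%, but over a larger set of 28431 genes. The eosinophil label was checked on 14 markers, which summed to 2093 to 4068 CPM in the graft and 2037 to 3622 CPM in resting lung, with none at 0. The 6 lower ones were genes of the granules, among them Epx, the eosinophil peroxidase (6.89 ± 3.83 CPM in the graft, 93.1 ± 69.2 CPM in resting lung), and Prg2, the major basic protein (81.5 ± 52.7 and 463 ± 186 CPM). The 3 higher ones were Siglecf, Il1rl1 and Csf2rb, and Ccr3 and Il5ra did not pass. Neutrophil markers summed to 4329.9 to 8155 CPM in the graft and 8034 to 11037 CPM in resting lung. Markers of other cells were present in every library. Endothelial markers were lower in 12 of 12 cases (summed 96.3 to 170 CPM in the graft, 2552 to 3517 CPM in resting lung) and epithelial markers in 9 of 10 (80.4 to 543 CPM and 3395 to 4797 CPM). Monocyte and interstitial macrophage markers were higher in 11 of 14 cases (5231 to 10658 CPM in the graft, 3090 to 3840 CPM in resting lung) and T cell markers in 12 of 12 (441 to 1069 CPM and 127 to 183 CPM). Natural killer cell markers were higher in 6 of 10 cases, and alveolar macrophage markers were lower in 7 of 10. All 6 tested red cell markers and all 6 platelet markers were lower. In such bulk libraries fewer cells of a type and less RNA per cell cannot be told apart.

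Cxcl12 (ENSMUSG00000061353, chromosome 6, 117168535 to 117181367 on mm10) had the largest fall of the members. Its level was 7.56, 1.15, 8.55, 5.27 and 6.25 CPM in the 5 graft libraries, against 95.2, 77.8, 114, 101 and 81.1 CPM in the 5 resting libraries. Every graft library lay far below every resting one, and graft replicate 2 was the lowest, with 21 reads. The log2 fold change was -4.02 ± 0.37 (SE, edgeR adjusted p = 1.61e-06), and it stayed between -4.24 and -3.74 under all other settings and with any library left out. Cx3cl1 (ENSMUSG00000031778, chromosome 8, 94772009 to 94782427), the fractalkine gene, was also far lower. It had 4.69, 0.824, 3.37, 4.55 and 1.83 CPM in the graft libraries, against 53.5, 38.3, 39.4, 43.5 and 34.7 CPM in the resting libraries, a log2 fold change of -3.78 ± 0.35 (edgeR adjusted p = 1.90e-06). Graft replicate 2 was again the lowest, with 15 reads.

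Endothelial and epithelial markers were lower in the same libraries, and their median log2 fold changes were -5.35 and -2.63. Of 12 endothelial markers 11 had a lower log2 fold change than Cxcl12 and than Cx3cl1, and 1, Pecam1 (-2.63), a higher one. Pecam1 weighed most in the graft sum, at 70.0 ± 17.0 CPM, against 433 ± 50.3 CPM in resting lung. Ratios to endothelial markers without Pecam1 were not computed. Of 10 epithelial markers 8 had a higher log2 fold change than Cx3cl1 and 2 a lower one. Set against the summed endothelial markers, Cxcl12 reached 12.0 to 56.0 CPM per 1000 CPM of markers in the graft and 27.1 to 41.5 in resting lung. The ranges overlapped, and graft replicate 2, which also had the lowest endothelial (96.3 CPM) and epithelial (80.4 CPM) sums, gave the lowest ratio of Cxcl12. Cx3cl1 per 1000 CPM of endothelial markers was 8.56 to 34.7 in the graft and 13.6 to 15.2 in resting lung, and per 1000 CPM of epithelial markers 5.88 to 14.2 and 8.86 to 11.3, again overlapping. Stromal markers, from the other known source of CXCL12, were divided: 3 of 10 were higher and 4 lower, with a median of -0.05. Tcf21, a factor of lung fibroblasts (-6.59), and Pdgfra, a fibroblast receptor (-4.13), had lower log2 fold changes than Cxcl12, and Pdgfrb, a pericyte receptor, was lower (-3.22), whereas Fn1 (1.01) and Col1a1 (0.94) were higher and Col1a2 and Col3a1 did not pass. Against the sum of this list, in which Fn1 and the collagens weigh most, Cxcl12 was 0.999 to 9.35 CPM per 1000 CPM in the graft and 101 to 142 in resting lung, without overlap. The stromal list contains Fn1, which macrophages also make, and without it (an alternative chosen after seeing the data) these ranges were 8.53 to 19.5 in the graft and 163 to 210 in resting lung.

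The genes whose profile over the 10 libraries was nearest to that of Cxcl12, by the root mean square (RMS) difference of centred log2(CPM + 0.5), were Fbln5 (0.23), an elastic fibre protein, Mgp (0.25), a matrix protein, and Robo4 (0.26), a receptor of endothelium. Fbln5 averaged 1.63 ± 0.86 CPM in the graft and 35.7 ± 3.34 CPM in resting lung (SD, n = 5 each). Nearest to Cx3cl1 were Npdc1 (0.20), Apbb2 (0.23) and Vegfd (0.23), the last a growth factor that acts on lymphatic and blood vessels. Vegfd averaged 0.49 ± 0.33 CPM in the graft and 13.0 ± 2.05 CPM in resting lung. The 0.5 added to CPM shrinks the changes of genes near or below that level, so a small RMS difference need not mean an equal fold change.

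Cxcr4 (ENSMUSG00000045382, chromosome 1, 128588199 to 128592293), the receptor of CXCL12, stood in contrast to its ligand. It had 144, 169, 208, 201 and 259 CPM in the graft libraries, against 145, 187, 185, 115 and 169 CPM in the resting libraries. The groups overlapped, with 3 graft libraries above all resting ones, and the log2 fold change was 0.29 ± 0.17 (edgeR adjusted p = 0.184). Its level per exon length was above that of 96.7% of tested genes in the graft and 96.6% in resting lung. Relative to eosinophil markers it was 61.9 to 81.2 CPM per 1000 CPM in the graft and 47.5 to 71.2 in resting lung, which also overlap. With no filter on low counts the log2 fold change was 0.41 and passed (edgeR adjusted p = 0.0140), and over the other alternatives and left-out libraries it ranged from 0.12 to 0.40 without passing. The 3 genes nearest in profile were Celf2 (0.11), Cul3 (0.11) and Churc1 (0.12). None of them passed the test (log2 fold changes 0.26, 0.26 and 0.17).

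**Figure D2:**
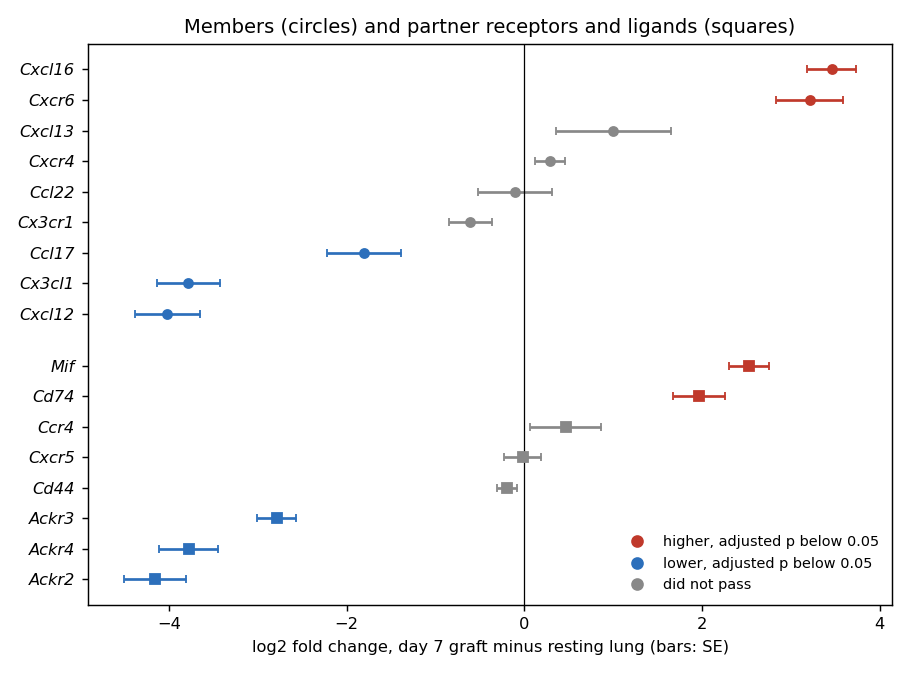
Log2 fold change (day 7 graft minus resting lung, bars are SE) of the 9 members as circles and of 8 tested partner receptors and ligands as squares, coloured by the test. Cxcl16 and Cxcr6 lie near 3, and Cxcl12 and Cx3cl1 lie near -4 together with the scavenging receptors Ackr2 and Ackr4.

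Of 9 other binding partners listed 8 were tested, and 2 were higher and 3 lower, with a median of -0.10. Over all genes tested 23.3% were higher and 23.4% lower, and the counts of this and the other gene lists stand against those shares. Ackr3, the atypical receptor that takes up CXCL12 without G protein signalling, was lower at 7.15 ± 2.18 CPM in the graft and 49.5 ± 10.7 CPM in resting lung (edgeR adjusted p = 2.61e-07). Ackr2, a scavenger of inflammatory CC chemokines that include CCL17 and CCL22, was lower by 4.15 ± 0.35 on the log2 scale, and Ackr4, a scavenger of homeostatic chemokines, had a log2 fold change of -3.77 ± 0.33. Mif, a cytokine that can also engage CXCR4, was higher at 207 ± 75.2 CPM in the graft and 35.8 ± 3.69 CPM in resting lung (edgeR adjusted p = 8.79e-07). Cd74, the invariant chain and surface receptor of MIF, was higher at 8457 ± 4069 CPM in the graft and 2160.0 ± 515 CPM in resting lung. Its coreceptor Cd44 did not pass, at 852 ± 76.9 CPM in the graft and 974 ± 90.4 CPM in resting lung. Ackr1 had too few reads to be tested. Endothelial markers fell and macrophage markers rose in the same libraries, and their part in these differences was not tested.

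Cxcl16 (ENSMUSG00000018920, chromosome 11, 70453983 to 70459984) was the member with the largest rise. It had 378, 587, 402, 246 and 186 CPM in the graft libraries, against 31.7, 28.9, 33.2, 38.3 and 31.6 CPM in the resting libraries. The lowest graft library was well above the highest resting one, and the spread was wide in the graft but narrow in resting lung. The log2 fold change was 3.46 ± 0.27 (edgeR adjusted p = 3.91e-07), and it lay between 3.22 and 3.64 under all other settings and with any library left out. Zmynd15 shares 552 exonic bases with Cxcl16 on the opposite strand. It had 2619 counts over all libraries, and whether reads were counted by strand is not stated in the sources, so reads of the pair may be shared.

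Cxcr6 (ENSMUSG00000048521, chromosome 9, 123806475 to 123811760), the receptor of CXCL16, was higher alongside. It had 62.6, 31.0, 51.9, 35.7 and 93.0 CPM in the graft libraries, against 4.45, 1.99, 7.65, 8.25 and 7.34 CPM in the resting libraries. Again no graft library reached down to the resting range, and the log2 fold change was 3.21 ± 0.38 (edgeR adjusted p = 1.58e-05). Within the graft the ligand and the receptor were ordered differently. Replicate 2 had the most Cxcl16 (587 CPM) and the least Cxcr6 (31.0 CPM), and replicate 5 had the least Cxcl16 (186 CPM) and the most Cxcr6 (93.0 CPM). Replicate 2 also had the highest monocyte and macrophage marker sum (10658 CPM) and the lowest T cell marker sum (441 CPM), and replicate 5 the lowest (5231 CPM) and the highest (1069 CPM) of these. Per kilobase of exon, Cxcl16 stood at 1.28 to 12.1 times Cxcr6 in the graft and at 2.75 to 9.30 times in resting lung.

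Each gene was also set against the summed markers of the cells that usually make it. Cxcl16 per 1000 CPM of monocyte and macrophage markers was 35.5 to 55.0 in the graft and 8.45 to 10.7 in resting lung. Cxcr6 per 1000 CPM of T cell markers was 56.4 to 87.2 in the graft and 15.6 to 52.1 in resting lung. Neither pair of ranges overlapped, though the gap for Cxcr6 was narrow (56.4 against 52.1), and single markers differed from the sums. Of the 14 monocyte and macrophage markers 5 had a larger log2 fold change than Cxcl16 (3.46): C1qa (4.67), C1qb (4.93) and C1qc (4.62), the chains of complement C1q, Ms4a7 (4.45) and Fcgr1 (3.88). Abundant markers such as Csf1r (0.66) and Adgre1 (0.11, not passing) had smaller ones. Nr4a1 (987 CPM), Adgre1 (651), Csf1r (630) and Cd14 (617) weighed most in the resting sum. C1qa, C1qb and C1qc averaged 12.1, 25.0 and 17.8 CPM there. Ratios to the C1q genes alone were not computed. Of the 12 T cell markers Cd8a, the CD8 alpha chain, had a larger log2 fold change (4.12) than Cxcr6 (3.21). By profile, Cxcr6 was nearest to Tigit (RMS difference 0.38), an inhibitory receptor of T and natural killer cells, Cd8b1 (0.39), a chain of the CD8 coreceptor, and Il2ra (0.46), a chain of the interleukin-2 receptor. Cd8b1 averaged 65.2 ± 24.4 CPM in the graft and 8.54 ± 2.34 CPM in resting lung. Nearest to Cxcl16 were Sectm1a (0.14), Il12rb1 (0.19), a receptor chain for interleukin-12, and Fabp5 (0.24), a fatty acid-binding protein that is abundant in macrophages. Sectm1a averaged 5.24 ± 2.56 CPM in the graft and only 0.036 ± 0.051 CPM in resting lung. Its log2 fold change was 6.76, far above that of Cxcl16, and the added 0.5 hides this difference. Fabp5 averaged 289 ± 164 CPM in the graft and 24.3 ± 4.27 CPM in resting lung.

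**Figure D3:**
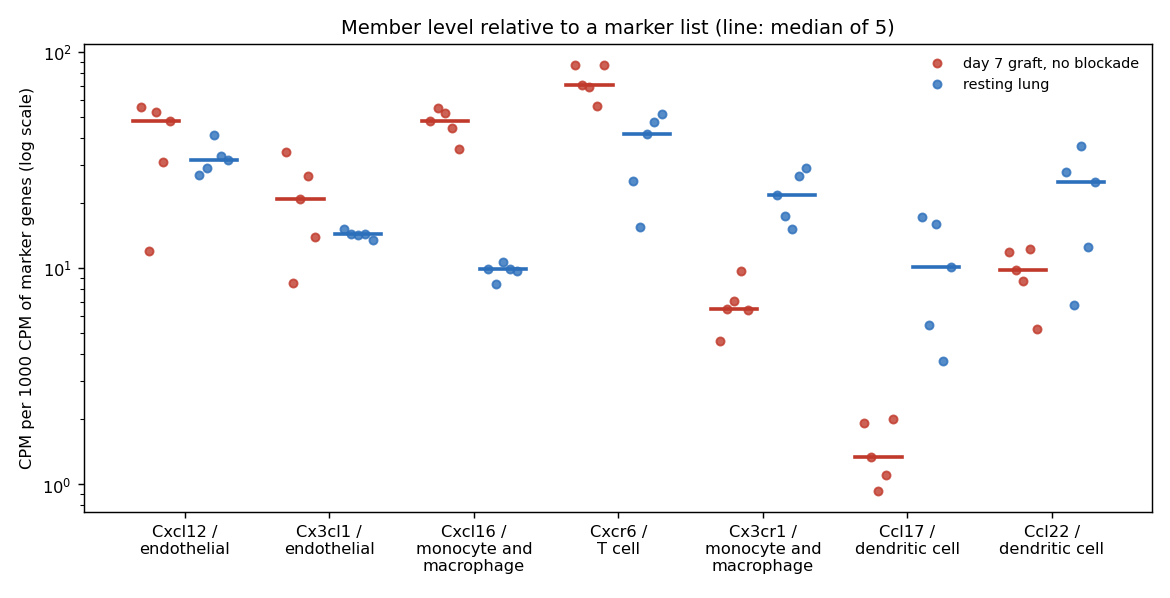
Level of 7 member genes per 1000 CPM of a summed marker list (log scale) in each library, with a line at each group's median and day 7 grafts left of resting lungs. Cxcl12 and Cx3cl1 overlap between the groups once set against the summed endothelial markers, in which Pecam1 weighs most in the graft. The other 11 of the 12 endothelial markers had lower log2 fold changes than both genes. Against their summed lists Cxcl16 and Cxcr6 lie higher in the graft, Cxcr6 by a narrow gap. Cx3cr1 and Ccl17 are lower, and Ccl22 overlaps. Single markers differ from the sums.

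The fractalkine receptor gene Cx3cr1 (ENSMUSG00000052336, chromosome 9, 119901616 to 120069879) had 36.3, 68.9, 54.1, 53.4 and 33.5 CPM in the graft libraries, against 69.7, 59.8, 47.2, 103 and 94.9 CPM in the resting libraries. Only graft replicates 1 and 5 lay below all resting libraries. The log2 fold change of -0.61 ± 0.24 had an edgeR adjusted p of 0.0535 and so missed the threshold narrowly. It passed under 6 of 8 other settings (adjusted p from 0.00444 to 0.0846) and without graft replicate 2 or resting replicate 2 or 3 (from 0.0173 to 0.140 over the left-out libraries), always with the same sign. Monocyte and macrophage markers were higher in 11 of 14 cases in the same libraries. Per 1000 CPM of their sum Cx3cr1 was 4.64 to 9.71 in the graft and 15.3 to 29.1 in resting lung, without overlap. Single markers differed: Adgre1 and Mrc1 did not pass, and Nr4a1, the most abundant of the list in resting lung, was lower. Nr4a1 had 470 ± 136 CPM in the graft and 987 ± 142 CPM in resting lung. Its log2 fold change of -1.07 was below that of Cx3cr1, and 13 markers lay above Cx3cr1. The genes nearest to Cx3cr1 in profile were Sh2d1b1 (0.23), an adaptor of natural killer cells, Raph1 (0.24) and Cib2 (0.25). Sh2d1b1 averaged 8.19 ± 1.73 CPM in the graft and 13.1 ± 2.91 CPM in resting lung, a change that passed (edgeR adjusted p = 0.0139). The antisense gene Gm33858 shares 78 exonic bases with Cx3cr1.

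Ccl22, Cx3cl1 and Ccl17 lie in this order on the same strand of chromosome 8 within 66.4 kb, separated by 20.3 kb and 28.0 kb, and the only other annotated gene in that span is the pseudogene Gnb1-ps3, with 3 counts in all. Their log2 fold changes were -0.10, -3.78 and -1.80. The 250 bases upstream of each RefSeq start site are shown because these neighbours gave different values. The sequences are from RefSeq on GRCm38.p6, plus strand, at chr8:94745434-94745683 for Ccl22, chr8:94771930-94772179 for Cx3cl1 and chr8:94810203-94810452 for Ccl17. RefSeq and GENCODE place 2 of these starts differently: the last 171 bases of the Cx3cl1 window and the last 94 of the Ccl22 window lie within the gene as GENCODE annotates it, and 0 bases of the Ccl17 window do. Capitals mark a match to any of 4 motifs searched on both strands: TTC and GAA with 4 bases between them for STAT6, GAAA and GAAA with 2 bases between them for the interferon-stimulated response element, GGGA and CC with 4 bases between them for NF-kB, and ACGTG for the hypoxia response element.
Ccl22: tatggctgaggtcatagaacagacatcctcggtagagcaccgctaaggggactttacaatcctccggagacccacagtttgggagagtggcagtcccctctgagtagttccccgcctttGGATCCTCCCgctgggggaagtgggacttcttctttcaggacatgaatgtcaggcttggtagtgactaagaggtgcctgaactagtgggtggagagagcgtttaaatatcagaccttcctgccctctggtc
Cx3cl1: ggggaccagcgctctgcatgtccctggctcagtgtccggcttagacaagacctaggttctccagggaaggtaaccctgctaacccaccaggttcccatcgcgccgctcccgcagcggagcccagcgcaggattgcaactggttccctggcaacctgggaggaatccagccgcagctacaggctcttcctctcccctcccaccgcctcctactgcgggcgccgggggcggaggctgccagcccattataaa
Ccl17: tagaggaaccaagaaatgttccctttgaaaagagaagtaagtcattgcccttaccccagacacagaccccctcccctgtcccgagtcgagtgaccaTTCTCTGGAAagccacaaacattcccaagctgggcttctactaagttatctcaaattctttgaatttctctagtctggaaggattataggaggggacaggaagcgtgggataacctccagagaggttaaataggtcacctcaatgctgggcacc

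The match in Ccl22 is to the NF-kB motif, and the match in Ccl17 is to the STAT6 motif. None of the 4 motifs stands in the Cx3cl1 window. A promoter was found for 8 of the 9 members, all but Cxcl16; the Cx3cr1 window lies wholly within the gene as GENCODE annotates it. Among these 8 windows the NF-kB motif stood in 2 (Ccl22 and Cxcl13), the STAT6 motif in 1 (Ccl17), and the other motifs in 0. Of all 32851 RefSeq promoters, 17.6% held the NF-kB motif, 5.85% the STAT6 motif, 2.98% the interferon-stimulated response element and 16.6% the hypoxia response element. No matches of different motifs overlapped in the members. These matches describe letters and are not binding sites.

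Ccl17 (ENSMUSG00000031780, chromosome 8, 94810453 to 94812036) had few reads over its 514 exonic bases. It had 1.83, 1.81, 0.980, 0.857 and 1.51 CPM in the graft libraries, from 13 to 33 reads each, against 8.58, 2.09, 7.13, 2.03 and 4.45 CPM in the resting libraries. The groups did not overlap, but resting replicates 2 and 4 lay close above the highest graft library. Per exon length its level was above that of 45.2% of tested genes in the graft and 72.8% in resting lung. The log2 fold change of -1.80 ± 0.42 passed (edgeR adjusted p = 0.00303) and lay between -1.99 and -1.48 with any library left out. Ccl22 (ENSMUSG00000031779, chromosome 8, 94745590 to 94751699) had 11.3, 13.4, 9.18, 9.56 and 3.93 CPM in the graft libraries, against 13.9, 2.59, 16.3, 6.90 and 11.0 CPM in the resting libraries. Its groups overlapped throughout and the log2 fold change was -0.10 ± 0.41 (edgeR adjusted p = 0.862), with a sign that changed with the setting. Whether the 2 CCR4 ligands differ in their change was not tested.

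Per kilobase of exon, the ratio of Ccl22 to Ccl17 was 1.37, 1.63, 2.07, 2.47 and 0.576 in the graft libraries, against 0.358, 0.274, 0.506, 0.752 and 0.549 in the resting libraries. Graft replicates 1 to 4 therefore held more Ccl22 than Ccl17 while replicate 5 and all resting libraries held less. Of 11 dendritic cell markers 7 rose, 1 fell and 3 (Flt3, Clec9a and Cd209a) did not pass. The one that fell was Zbtb46, at 15.1 ± 3.17 CPM in the graft and 38.1 ± 8.18 CPM in resting lung. The list summed to 748 to 1357 CPM in the graft and 382 to 546 CPM in resting lung. Cd83 (525 CPM in the graft, 226 CPM in resting lung) and Ccr7 (195 and 125 CPM) weighed most in both groups. Ccl17 per 1000 CPM of this summed list was 0.936 to 2.02 in the graft and 3.71 to 17.3 in resting lung, without overlap. Ccl22 was 5.26 to 12.3 and 6.77 to 36.9, with overlap. Ratios to dendritic cell markers without Cd83 and Ccr7 were not computed. The receptor gene Ccr4 had few reads, 76 over all graft libraries and 30 over all resting libraries. It averaged 0.82 ± 0.10 CPM in the graft and 0.58 ± 0.35 CPM in resting lung, and did not pass (edgeR adjusted p = 0.372). Nearest to Ccl17 in profile were Dnaic1 (0.36), a component of motile cilia, Slc27a6 (0.37) and Scn4a (0.41). Dnaic1 and Slc27a6 averaged 0.39 and 0.24 CPM in the graft, below the 0.5 added to CPM. Their log2 fold changes were -2.51 and -2.86. Nearest to Ccl22 were Nsl1 (0.40), Zfp790 (0.44) and Sh2d4b (0.44), none of which passed the test.

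Cxcl13 (ENSMUSG00000023078, chromosome 5, 95956951 to 95961068), which attracts B cells through CXCR5, was scarce and uneven. It had 7.19, 1.92, 6.51, 4.88 and 6.79 CPM in the graft libraries, against 7.10, 0.199, 0.517, 1.49 and 4.15 CPM in the resting libraries. Resting replicate 2 held 2 reads and replicate 3 held 5, while resting replicate 1 exceeded 4 of the graft libraries. The log2 fold change was 1.00 ± 0.65 (edgeR adjusted p = 0.228), and without resting replicate 1 it was 1.73 and passed (edgeR adjusted p = 0.0481, from 0.0481 to 0.376 over the left-out libraries). The receptor gene Cxcr5 had 22.8 ± 4.37 CPM in the graft and 23.1 ± 7.21 CPM in resting lung (edgeR adjusted p = 0.956), while B cell markers were lower in 7 of 9 cases and higher in 0. Against stromal markers Cxcl13 was 1.67 to 10.2 CPM per 1000 CPM in the graft and 0.276 to 7.52 in resting lung, and without Fn1 it was 9.13 to 18.7 and 0.42 to 12.1, overlapping either way. The genes nearest to Cxcl13 in profile were more distant than for any other member: Col6a5 (0.61), Bdh1 (0.68) and Ckap2 (0.71).

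The order of the 9 genes by level per kilobase of exon changed between the groups. In the graft Cxcl16 (119 ± 51.5 CPM per kb) and Cxcr4 (108 ± 24.2) led with overlapping ranges, followed by Cxcr6 (28.4 ± 12.9) and Cx3cr1 (10.9 ± 3.22), each apart from its neighbours. Cxcl13 (4.75 ± 1.88), Ccl22 (4.08 ± 1.52) and Ccl17 (2.72 ± 0.89) came next with ranges that overlapped, and Cx3cl1 (0.78 ± 0.43) and Cxcl12 (0.70 ± 0.35) were last and overlapped as well. In resting lung Cxcr4 (88.5 ± 16.7 CPM per kb) stood alone at the top. From there each neighbour overlapped the next: Cx3cr1 (16.6 ± 5.22), Cxcl12 (11.5 ± 1.83), Cxcl16 (10.8 ± 1.14), Cx3cl1 (10.7 ± 1.84), Ccl17 (9.45 ± 5.75), Ccl22 (4.36 ± 2.36), Cxcr6 (3.07 ± 1.37) and Cxcl13 (2.34 ± 2.53). Cxcl12 thus stood behind only Cxcr4 and Cx3cr1 by mean in resting lung and came last in the graft. With the longest transcript as length, Cxcl12 and Cx3cl1 changed places in the graft and Cx3cl1 and Cxcl16 in resting lung, pairs whose ranges overlap.

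**Figure D4:**
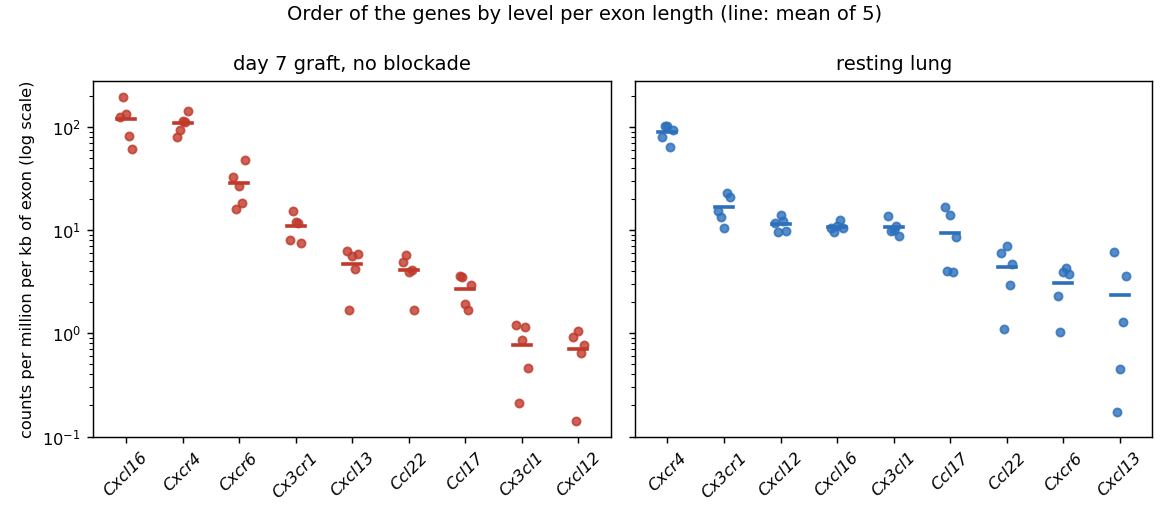
CPM per kilobase of merged exons (log scale) for the 9 genes in day 7 grafts (left) and resting lungs (right), ordered by mean in each group, with a point per library and a line at the mean. Cxcl16 and Cxcr4 overlap at the top of the graft, whereas Cxcr4 alone lies above the rest in resting lung.

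Proteases and inhibitors that act on these ligands were divided, with 4 of 12 higher and 6 lower (median log2 fold change -0.32). Ctss, the macrophage cathepsin that can release fractalkine, was higher at 2833 ± 1199 CPM in the graft and 406 ± 86.0 CPM in resting lung (edgeR adjusted p = 2.30e-06). Adam17, a sheddase of fractalkine, rose to 237 ± 77.4 CPM in the graft, against 101 ± 11.5 CPM in resting lung. Adam10, which sheds both membrane-anchored ligands, rose by 0.55 ± 0.13 on the log2 scale. Mmp14, a membrane metalloproteinase, rose by 2.79 ± 0.29. The lower genes included Elane, the neutrophil elastase (5.11 ± 4.69 CPM in the graft, 98.4 ± 45.2 CPM in resting lung), Rhbdf1, which carries ADAM17 to the surface (1.48 ± 0.67 and 17.7 ± 3.93 CPM), and Timp3, an inhibitor of ADAM17 (31.2 ± 16.6 and 322 ± 31.7 CPM). Rhbdf2, the more abundant relative of Rhbdf1, did not pass, at 151 ± 39.7 CPM in the graft and 139 ± 14.6 CPM in resting lung. Neutrophil markers, of which Elane is one, were lower in 4 of 10 cases and higher in 0. The lower ones were Camp, Ngp, Ltf and Elane, while S100a8, S100a9, Ly6g, Mmp8, Cxcr2 and Retnlg did not pass.

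Among 18 genes that carry the signal of chemokine receptors 4 were higher and 0 lower, with a median of 0.05. The largest rises were those of Vav1, an exchange factor for small GTPases of leukocytes (237 ± 79.7 CPM in the graft, 92.6 ± 20.5 CPM in resting lung), Rac1, a GTPase of cell movement (341 ± 59.4 and 168 ± 30.5 CPM), and Gnb1, a G protein beta subunit, with a log2 fold change of 0.67 ± 0.18. Gnai2, the main inhibitory G protein alpha subunit of leukocytes, did not pass, with a log2 fold change of -0.13 ± 0.11. Among 15 genes that switch receptors off 5 were higher and 4 lower, with a median of 0.15. Rgs16 and Rgs1, which speed up the inactivation of G proteins, were higher: Rgs16 had 45.2 ± 23.3 CPM in the graft and 2.22 ± 0.38 CPM in resting lung (edgeR adjusted p = 4.02e-07), and Rgs1 had 399 ± 48.4 and 115 ± 19.3 CPM. Grk6, a receptor kinase, was higher by 0.93 ± 0.29 on the log2 scale. Their relatives Rgs3, Arrb1 and Grk5 were lower, with log2 fold changes of -1.86 ± 0.13, -0.77 ± 0.13 and -0.70 ± 0.18, while Arrb2, the other arrestin gene, was higher by 0.77 ± 0.11.

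Of 20 transcription and signalling regulators linked to these genes 9 were higher and 3 lower, with a median of 0.38. Tbx21, the T-bet factor of type 1 lymphocytes, had 24.3 ± 4.52 CPM in the graft and 6.53 ± 1.37 CPM in resting lung, and Prdm1, a factor of effector and tissue-resident lymphocytes, had 107 ± 39.6 and 30.3 ± 3.47 CPM. Both were higher (edgeR adjusted p = 1.85e-06 and 3.94e-05). Epas1, a hypoxia-inducible factor subunit that is abundant in endothelium, was lower at 8.22 ± 3.52 CPM in the graft and 949 ± 99.9 CPM in resting lung, whereas Hif1a was higher by 1.11 ± 0.16 on the log2 scale. The glucocorticoid receptor gene Nr3c1 and its target Tsc22d3 were lower, with log2 fold changes of -0.34 ± 0.12 and -0.84 ± 0.16. Stat6, which transmits interleukin-4 and interleukin-13 signals, did not pass, at -0.18 ± 0.13. T cell, macrophage and endothelial markers moved in the same libraries, and their part in these differences was not tested.

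**Figure D5:**
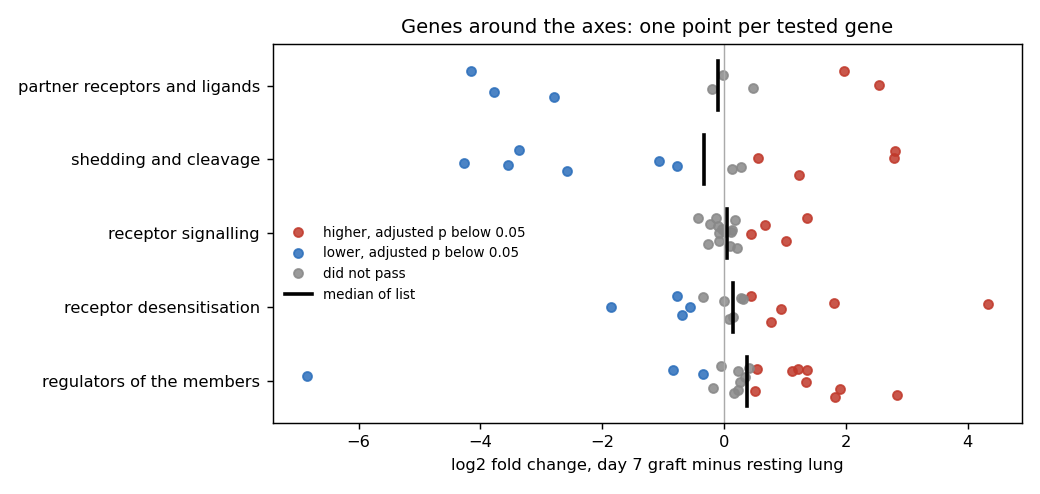
Log2 fold change (day 7 graft minus resting lung) of each tested gene in 5 lists around the axes, coloured by the test, with a bar at each list's median. The medians lie between -0.32 and 0.38, the signalling genes cluster near 0, and Epas1 lies at -6.85.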

How the data were processed

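Trizol extraction and NEBNext Ultra II libraries are given per the labels' protocols. The tools listed per the submitters' processing notes are STAR 2.5.2b, Subread 1.5.2, featureCounts, Trimmomatic 0.36 and bcl2fastq 2.17, and the build is mm10; their order and settings are not given in the labels. The authors deposited raw counts per gene in 2 tables, joined on 49315 identifiers. Columns were tied to samples by name, and 10 columns whose headings match no label were not used. Symbols, coordinates and exon lengths came from GENCODE M21, whose build is also mm10.

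Genes were filtered with filterByExpr, which removed 32815 and left 16500. Differences (day 7 without blockade minus resting) were tested in R 4.3.3 by edgeR 4.0.16 (quasi-likelihood F test, robust, TMM scaling, group as the only term) with Benjamini-Hochberg adjustment over all genes tested and a threshold of 0.05. SE was taken as the size of a log2 fold change over the root of its F statistic. CPM is a count scaled to the TMM-adjusted library total. No test corrects for the number of mice in a pool, and p-values measure the spread between pools, which may be technical. Every pair of libraries within a group differed by more than sampling noise (chi-square per degree of freedom of 5.95 or more). Floors cover counting error only.

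The members and all gene lists were chosen with earlier results of these data known. Named genes are the 9 members, the called genes with the largest rises and falls of each list, up to 3 in each direction, and the 3 genes with the nearest profile to each member, leaving out names without an official symbol. Adam10, Arrb2, Cd44, Ccr4, Cxcr5, Gnai2, Hif1a, Rhbdf2, Stat6 and the single markers were named after their values were seen. Alternatives used DESeq2 1.42.0 and limma 3.58.1. A gene and a motif that the rules would name are not reported here.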

Additional observations from a re-analysis of the deposited data

How the results depend on the processing

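Cxcl12, Cx3cl1, Ccl17, Cxcl16 and Cxcr6 kept their direction and their call under 8 of 8 other settings and in 10 of 10 fits without 1 library. Cx3cr1 did not pass in the main analysis (log2 fold change -0.61) and passed with DESeq2 size factors (-0.64), library totals alone (-0.81), no filter (-0.49), a filter at 1 CPM in 5 libraries (-0.61), without robust dispersion (-0.61) and with DESeq2's own test (-0.61). Its range over left-out libraries was -0.74 to -0.45. Cxcr4 passed with no filter (0.41). Ccl22 changed sign with no filter (0.0068) and with limma-voom (0.016), never passed, and ranged from -0.35 to 0.14 over left-out libraries, with positive values of 0.11, 0.044 and 0.14 without graft replicate 5 and without resting replicate 1 or 3. Cxcl13 ranged from 0.70 to 1.73 over left-out libraries. The cause was not tested.

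The replicate numbers in the titles gave no pairing: same-numbered libraries had deviations correlated between -0.19 and 0.12, and 0 of 5 graft libraries correlated best with their own number. With the replicate number as a block Cxcl13 was higher by 1.48 and passed (edgeR adjusted p = 0.0365), 3317 genes were higher and 3636 lower, and no other member changed its call.

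Over all genes 3843 were higher and 3859 lower. Library totals alone gave 2495 higher, no filter gave 6715 lower and DESeq2 gave 6209 lower. More genes are tested in the last 2 of these settings. No filter also raised the median log2 fold change of the same genes by 0.11. Chosen after seeing the data, stromal markers without Fn1 moved the median Cxcl12 level per 1000 CPM of markers to 11.2 in the graft and 165 in resting lung (5.72 and 108 with it) and that of Cxcl13 in the graft to 14.2 (5.45 with it); dendritic cell markers without Ccl5 left the Ccl17 and Ccl22 ratios within the spread between libraries. Ccl17, with 13 to 33 reads per graft library, and Cxcl13, with 2 to 67 per resting library, are limited by depth.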
